A study of Mus musculus with 18 samples.

Results

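The 35 genes described here encode the machinery and the readouts of the unfolded protein response and the integrated stress response, and were picked by gene symbol from a list of known members. All 35 were found in both deposited tables of gene counts, which hold 22137 and 24778 genes, and all 35 passed the filter on low counts in each. The tissue was metastatic liver tumour grown from MC38, a colon carcinoma line of the mouse, after tumour cells had been injected into the spleen. The first table holds tumours of wild-type mice on a low-fat diet (LFD, 5 libraries) or a high-fat diet (HFD, 5 libraries). The second holds tumours labelled shCon (4 libraries, genotype shControl) or shYap (4 libraries, short hairpin against Yap), and all of these mice were wild type and had the high-fat diet. The labels do not give the age or sex of the mice, the cells that carry the hairpin, the number of cell clones or whether each library came from its own animal, so p-values measure the spread between these libraries, which may be technical.

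The endoplasmic reticulum (ER) folds proteins that are to be secreted or placed in membranes. When unfolded proteins build up there, the kinase and endonuclease IRE1, the membrane-bound factor ATF6 and the kinase PERK respond: IRE1 splices the Xbp1 message, ATF6 is cut to free a transcription factor, and PERK phosphorylates the initiation factor eIF2, which slows translation while ATF4 is made. ATF6 and spliced XBP1 act on genes of chaperones and of ER-associated degradation, which returns misfolded proteins to the cytosol. ATF4 is also reached by other eIF2 kinases, for example in amino acid shortage, and acts on genes of amino acid supply and on the factor CHOP. Hepatocytes and plasma cells secrete much protein and are known for a large ER. The members were therefore taken as 14 folding genes, 8 genes of ER-associated degradation and 4 sensors and factors (the ATF6/XBP1 axis, 26 genes), and Atf4 with its targets (the ATF4 axis, 9 genes). Eif2ak3, the gene of PERK, is counted with the sensors and so in the ATF6/XBP1 axis, although PERK acts through eIF2 and ATF4. Gene counts do not tell spliced from unspliced Xbp1, and the activity of IRE1, PERK or ATF6 protein was not measured.

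Some of the ATF6/XBP1 genes carry a sequence known from ER stress in their promoters. These genes were picked as known members of the axis, so shares with such an element describe the list and test nothing. RefSeq promoter windows of 300 bases (250 before and 50 after the transcription start, GRCm38.p6) were matched by symbol for 31 of 35 members, 22 of the ATF6/XBP1 axis and 9 of the ATF4 axis, and a gene with several windows was counted once. The ER stress response element, searched on both strands as CCAAT, any 9 bases and CCACG, was found in 9 of the 22 genes and in 0 of the 9 of the ATF4 axis, against 0.137% of all 27025 genes with a window. The matches are shown because their ends are fixed by the search and the spacer is not. Each is written in the direction of the motif, 5′ to 3′, with the searched ends in capitals, and its first base in the window is given relative to the start.
Hspa5 (-65): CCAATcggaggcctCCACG
Hsp90b1 (-212): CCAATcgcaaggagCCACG
Hsp90b1 (-107, other strand): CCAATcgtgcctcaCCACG
Dnajc3 (-105): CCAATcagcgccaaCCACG
Pdia6 (-98): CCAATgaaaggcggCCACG
Calr (-162, other strand): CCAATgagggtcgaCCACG
Canx (-145): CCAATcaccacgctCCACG
Creld2 (-126, other strand): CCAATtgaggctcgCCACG
Syvn1 (-44): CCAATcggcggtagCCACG
Derl3 (-156, other strand): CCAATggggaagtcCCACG

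The related ER stress response element II (ATTGG, any base, CCACG), also searched on both strands, was in the windows of Herpud1 and Dnajb11, against 0.0444% of all genes. It begins at -52 in Herpud1 and 7 bases after the start in Dnajb11.
Herpud1: ATTGGgCCACG
Dnajb11: ATTGGcCCACG
Exact letters of the unfolded protein response element (TGACGTGG) were in 0 of the 31 genes and in 0.714% of all, and those of the composite element read by ATF4 (TGATGNAAT) in 0 of 31 and 1.08% of all. Overlap between the motifs was not excluded. A match describes these letters, and its absence says only that they are not in the window. Other spellings of the elements were not searched. The window of Asns, for example, holds TGATGAAAC, which differs from TGATGNAAT only in its last base.

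The whole windows of 3 members are given, with the matched letters in capitals. Hspa5 is the common readout of the response, and Herpud1 and Derl3 are degradation genes picked because they differed far more between LFD and HFD. Matches and calls did not go together throughout. Xbp1, Derl2 and Ern1 were lower in HFD without a match, and Calr, Pdia6, Creld2 and Syvn1 held the element and were not called. Whether a match bears on the levels was not tested. All 3 lie on the plus strand.
Hspa5, chr2:34771840-34772139: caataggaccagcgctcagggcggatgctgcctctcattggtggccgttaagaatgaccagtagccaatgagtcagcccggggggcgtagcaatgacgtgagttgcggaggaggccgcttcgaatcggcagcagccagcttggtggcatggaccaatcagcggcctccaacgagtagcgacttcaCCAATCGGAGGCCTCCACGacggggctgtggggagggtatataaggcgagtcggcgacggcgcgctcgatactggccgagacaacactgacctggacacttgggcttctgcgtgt
Herpud1, chr8:94386179-94386478: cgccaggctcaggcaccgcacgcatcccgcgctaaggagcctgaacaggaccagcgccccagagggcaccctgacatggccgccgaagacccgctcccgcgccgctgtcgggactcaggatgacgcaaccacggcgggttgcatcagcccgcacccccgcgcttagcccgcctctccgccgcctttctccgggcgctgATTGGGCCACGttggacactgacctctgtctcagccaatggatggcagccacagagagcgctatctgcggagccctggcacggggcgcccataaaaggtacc
Derl3, chr10:75893148-75893447: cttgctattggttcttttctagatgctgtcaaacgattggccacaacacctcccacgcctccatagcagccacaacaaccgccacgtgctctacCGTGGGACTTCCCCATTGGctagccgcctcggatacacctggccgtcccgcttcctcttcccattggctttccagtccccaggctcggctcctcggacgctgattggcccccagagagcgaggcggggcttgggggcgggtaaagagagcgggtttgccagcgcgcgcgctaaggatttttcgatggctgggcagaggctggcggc

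Library totals were 17766207 to 18474191 estimated counts in the LFD and HFD table and 17207214 to 21309950 in the other. Levels are CPM, counts per 1e+06 of a library size scaled by the trimmed mean of M values (TMM), each table alone, so that levels of the 2 tables are not on a common scale. The scaling factors were 0.821 and 0.684 in LFD replicates 1 and 5 and lay between 1.01 and 1.11 in the other LFD and HFD libraries. Summed over 25 hepatocyte genes, LFD replicates 1 to 5 held 94382, 15645, 36310, 21036 and 160080 CPM, and HFD libraries 1339.9 to 8675.6 CPM. Xist, a transcript of female cells, was at 72.87 to 135 CPM in LFD and at 0.0505 to 0.2934 CPM in HFD, so these groups differ in more than the diet they are labelled with. It was at 0 to 0.2027 CPM in the shCon and shYap libraries. The labels give no sex, and a difference in the sex of the mice could not be told apart from diet in the first table. Of 9 epithelial carcinoma markers 5 passed the filter in each table, and those 5 summed to 54.2 to 543 CPM in LFD and 187 to 359 CPM in HFD. All markers of that list present in the table summed to 399.18, 54.365, 196.05, 55.821 and 543.98 CPM in LFD replicates 1 to 5. This is the same order of libraries as for the hepatocyte genes, so the sums are no measure of tumour content. Yap1, the target of the hairpin, had levels of 78.13, 82.41, 73.75 and 77.43 CPM in shCon replicates 1 to 4, and of 71.62, 80.03, 81.39 and 70.5 CPM in replicates 1 to 4 labelled shYap. The groups overlap, so Yap1 did not bear out the shYap label, and shYap means below the libraries labelled so.

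Per kilobase of exon, the luminal chaperones were the most abundant members. Calr, which encodes the lectin chaperone calreticulin, led in all 4 groups, at 425.9 ± 46.1 CPM per kilobase in LFD (SD, n = 5), 378.5 ± 18.4 in HFD (SD, n = 5), 385.9 ± 55.7 in shCon (SD, n = 4) and 438.1 ± 139 in shYap (SD, n = 4). Pdia3, a disulfide isomerase that works with calreticulin, Hsp90b1, which encodes GRP94, and Hspa5, which encodes BiP, took the next 3 ranks in every group. Hsp90b1 and Hspa5, at 221 and 200 CPM per kilobase in LFD, are within an SD of each other there (28.7 for Hsp90b1). Atf4, at 108.6 CPM per kilobase in LFD, was the most abundant gene of the ATF4 axis and stood beside the isomerase Pdia4 at 115.6. Derl3 and Vldlr were the lowest members in all 4 groups.

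**Figure D1:**
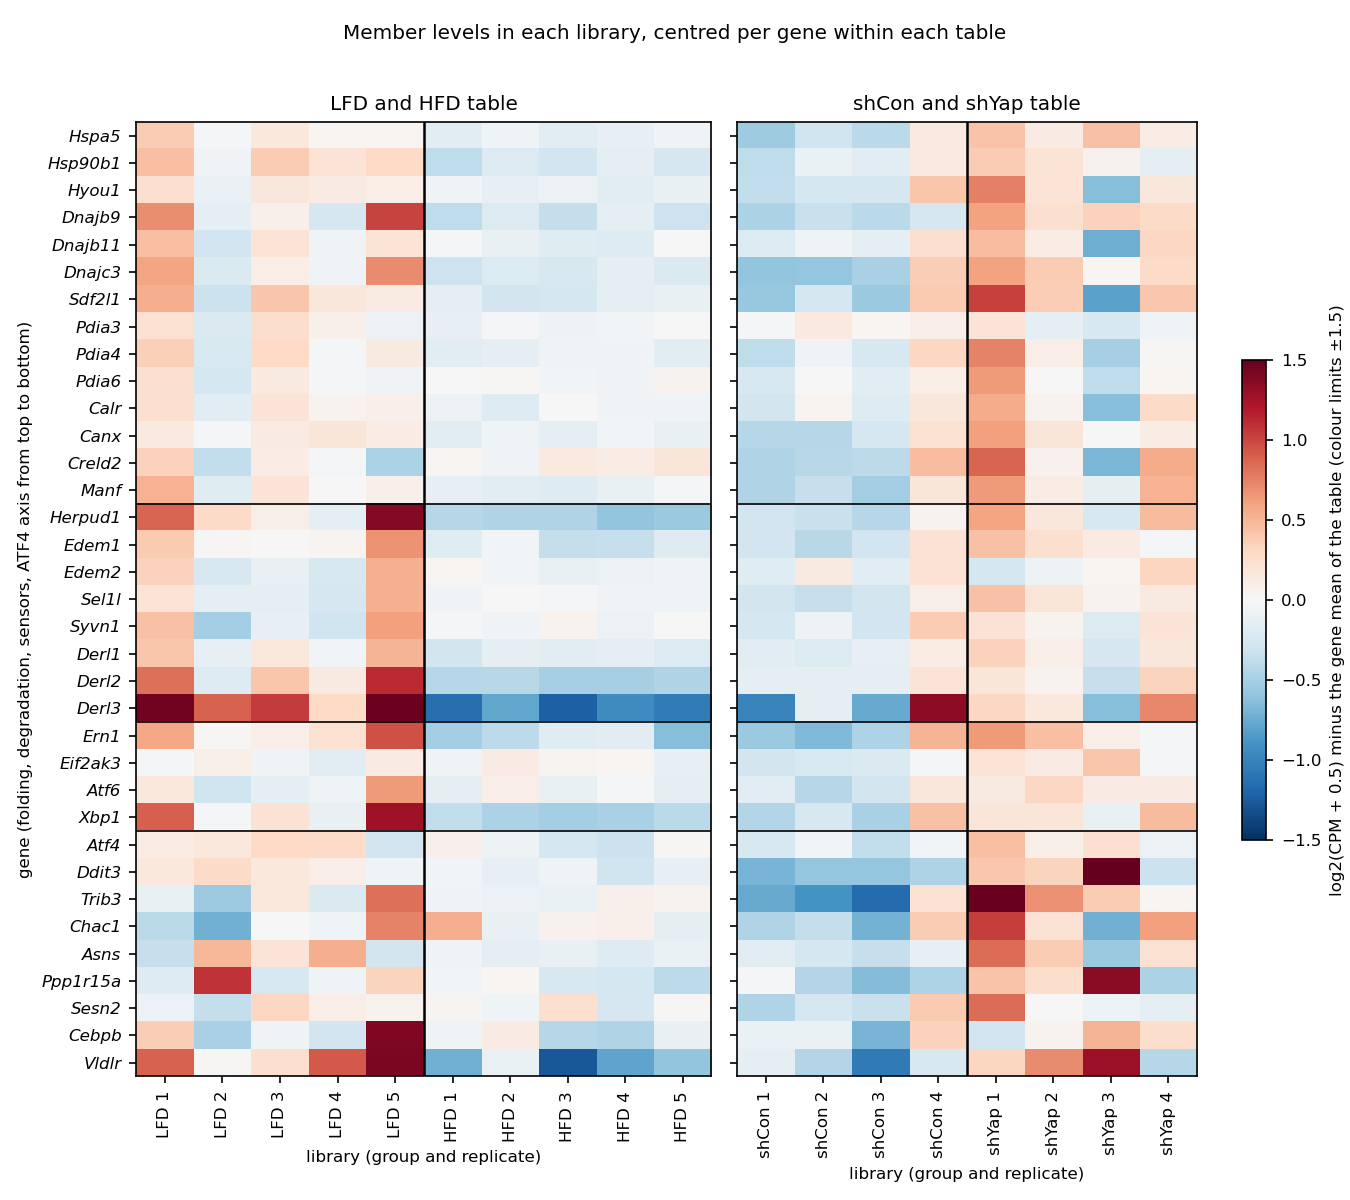
Each cell is the log2(CPM + 0.5) of a member in a library minus that gene's mean over its own table, with LFD 1 to 5 and HFD 1 to 5 at left and shCon 1 to 4 and shYap 1 to 4 at right; black lines divide groups and gene classes, and colours stop at 1.5 in either direction. LFD replicate 1 was the highest LFD library in 10 of 14 folding genes and LFD replicate 5 in all 8 degradation genes and all 4 sensors, shCon replicate 4 was the highest shCon library in 32 of 35 members, and colours vary less among HFD than among LFD libraries.

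The first comparison asks how tumours of mice on the 2 diets differ. In HFD, 15 of the 35 members were lower and 0 were higher (42.9% and 0%), against 21.6% and 19.4%, or 41.1% in either direction, of the 16340 genes tested (edgeR's quasi-likelihood test, Benjamini-Hochberg adjusted p under 0.05 over all genes). The lower ones were 6 of 14 folding genes, 5 of 8 degradation genes, 2 of 4 sensors and factors, and 2 of 9 genes of the ATF4 axis. The median log2 fold change was -0.24 over the members and -0.0018 over all genes, and 32 members had a negative value. At an unadjusted p under 0.05 there were 16 lower members and 0 higher ones (25.9% and 24% of all genes), and DESeq2 also called 0 higher (20% of all genes). All 5 HFD libraries lay below all 5 LFD libraries in 11 members (14.8% of all genes), and above them in 0 (15.8%). The falls were of unequal size: Derl3, Vldlr, Herpud1, Xbp1, Derl2 and Ern1 had larger fold changes than any folding gene.

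Among the degradation genes, Derl3 had the largest fold change of the 35 members. Derl3, a derlin of the ER membrane (chromosome 10 from 75893413 to 75895941, GRCm38, as for all positions here), was at 3.98, 2.54, 2.89, 1.52 and 4.07 CPM in LFD and at 0.249, 0.455, 0.202, 0.352 and 0.293 CPM in HFD. Every HFD library held less than every LFD library, and the gene was near the lower end of what was measured in both groups. Its log2 fold change was -3.24 ± 0.33 SE (adjusted p = 0.000182). Derl2, its paralog (chromosome 11 from 71007164 to 71019841), was at 98.3, 48.4, 74.0, 60.85 and 120.6 CPM in LFD and at 40.9, 41.5, 39.0, 39.2 and 40.5 CPM in HFD. LFD replicates 1 and 5 were the highest, and the HFD libraries lay within a narrow range below all LFD libraries (log2 fold change -0.998 ± 0.21 SE, adjusted p = 0.00493). An exon of Derl2 overlaps Mis12 on the other strand, and without the strand of the libraries their reads cannot be told apart.

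Herpud1 encodes a membrane protein that brings substrates to the degradation complex (chromosome 8 from 94386438 to 94395377). It was at 243.4, 161.0, 140.5, 119.0 and 345.4 CPM in LFD and at 97.9, 96.4, 96.8, 87.6 and 90.02 CPM in HFD. As with Derl2, LFD replicates 1 and 5 were highest and the groups did not overlap (log2 fold change -1.11 ± 0.26 SE, adjusted p = 0.00792). Edem1, which trims glycans of misfolded proteins, and Derl1 were lower by smaller amounts, with log2 fold changes of -0.46 and -0.39. Edem2, Sel1l and Syvn1, the last 2 being the core of the HRD1 ligase complex, did not pass the test, with log2 fold changes between -0.14 and -0.11. All 8 degradation genes had their highest LFD level in replicate 5, which was the highest LFD library in 32.6% of all genes.

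Among the sensors and factors, Xbp1 (chromosome 11 from 5520659 to 5525893) was at 308.4, 162.9, 192.0, 153.6 and 399.3 CPM in LFD and at 127.5, 118.7, 115.7, 118.1 and 124.5 CPM in HFD. The groups did not overlap, and the spread within LFD, an SD of 106.9 CPM around a mean of 243.2, was far wider than the SD of 4.94 CPM around 120.9 in HFD (log2 fold change -1.01 ± 0.25 SE, adjusted p = 0.00998). Ern1, which encodes IRE1 (chromosome 11 from 106394650 to 106487852), was at 69.4, 46.9, 49.4, 54.0 and 90.2 CPM in LFD and at 32.25, 35.15, 40.8, 41.4 and 29.5 CPM in HFD. It too was lower in every HFD library than in any LFD library (log2 fold change -0.79 ± 0.19 SE, adjusted p = 0.00765). The other sensors did not pass the test. Atf6 was at 83.3, 60.4, 68.0, 71.3 and 116.4 CPM in LFD and at 67.9, 79.8, 69.1, 72.8 and 67.4 CPM in HFD, with overlapping groups (log2 fold change -0.16, 95% interval -0.48 to 0.15). Eif2ak3, which encodes PERK, had a log2 fold change of 0.01 (95% interval -0.14 to 0.16), with levels of 33.7 ± 2.67 CPM in LFD and of 33.9 ± 2.18 CPM in HFD (SD, n = 5 in each group).

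The folding genes moved less than Xbp1 and Ern1. Hsp90b1 (chromosome 10 from 86690209 to 86705509) was at 1013, 712.3, 962.1, 853.2 and 915.1 CPM in LFD and at 570.2, 643.8, 608.8, 667.2 and 621.8 CPM in HFD. The groups did not overlap, and the fall was 1.43-fold (log2 fold change -0.52 ± 0.10 SE, adjusted p = 0.00325). Hspa5, the chaperone that also holds the sensors inactive (chromosome 2 from 34771970 to 34777547), was at 1010, 768.3, 869.4, 791.1 and 791.4 CPM in LFD and at 688.3, 741.7, 692.3, 710.2 and 750.0 CPM in HFD. Its groups did not overlap either, but the difference missed the threshold (log2 fold change -0.24 ± 0.09 SE, 95% interval -0.42 to -0.06, adjusted p = 0.0551).

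Canx, which encodes the membrane-bound lectin chaperone calnexin, was at 497.4, 443.4, 489.3, 511.0 and 486.2 CPM in LFD and at 399.3, 429.0, 405.9, 437.1 and 415.0 CPM in HFD. All HFD libraries were below LFD replicate 2, the lowest of its group (log2 fold change -0.22 ± 0.07 SE, adjusted p = 0.0242). Hyou1, which encodes a large HSP70-like chaperone, was at 221.2, 174.1, 209.7, 203.8 and 200.7 CPM in LFD and at 178.5, 171.7, 175.2, 166.4 and 172.6 CPM in HFD. LFD replicate 2 fell among the HFD libraries, and the others were above them (log2 fold change -0.22 ± 0.07 SE, adjusted p = 0.0316). Dnajb9, Dnajc3 and Sdf2l1, co-chaperones or partners of BiP, were called lower as well, with log2 fold changes of -0.65, -0.50 and -0.41 and overlapping groups. The remaining 7 folding genes (Dnajb11, Pdia3, Pdia4, Pdia6, Calr, Creld2 and Manf) did not pass, with log2 fold changes from -0.26 for Manf, a luminal protein released under ER stress, to 0.14 for Creld2. LFD replicate 1 was the highest of its group in 10 of the 14 folding genes (13% of all genes) and LFD replicate 2 the lowest in 12 (23.3%).

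Of the 9 genes of the ATF4 axis 2 were called lower in HFD (22.2%), near the 21.6% of all genes. Vldlr, a lipoprotein receptor gene (chromosome 19 from 27216484 to 27254231), was at 2.40, 1.09, 1.36, 2.46 and 3.66 CPM in LFD and at 0.449, 0.9595, 0.151, 0.403 and 0.538 CPM in HFD. The low counts did not overlap, although LFD replicate 2 and HFD replicate 2 were close (log2 fold change -2.10 ± 0.45 SE, adjusted p = 0.00504). Ddit3, which encodes CHOP (chromosome 10 from 127290774 to 127296288), was at 11.7, 12.8, 11.7, 11.2 and 9.93 CPM in LFD and at 10.1, 9.55, 9.97, 8.40 and 9.49 CPM in HFD. It passed narrowly and LFD replicate 5 lay among the HFD libraries (log2 fold change -0.27 ± 0.10 SE, adjusted p = 0.0495). Exons of Ddit3 overlap Mars on the other strand and a second entry of the same name.

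Atf4 itself was at 252.3, 260.9, 289.1, 286.4 and 191.2 CPM in LFD and at 246.6, 221.4, 195.6, 187.9 and 237.7 CPM in HFD, with overlapping groups (log2 fold change -0.23, 95% interval -0.48 to 0.01, adjusted p = 0.162). Asns, asparagine synthetase and a classical ATF4 target, was at 82.1, 147.1, 119.4, 152.9 and 86.3 CPM in LFD and at 100.2, 94.7, 96.4, 91.0 and 97.1 CPM in HFD. LFD replicates 1 and 5, the highest in Xbp1 and Herpud1, were the lowest in Asns, so these genes did not order the LFD libraries alike. Of the others, Trib3, Chac1, Ppp1r15a, Sesn2 and Cebpb, none passed, with log2 fold changes from -0.54 for Cebpb to 0.12 for Chac1.

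**Figure D2:**
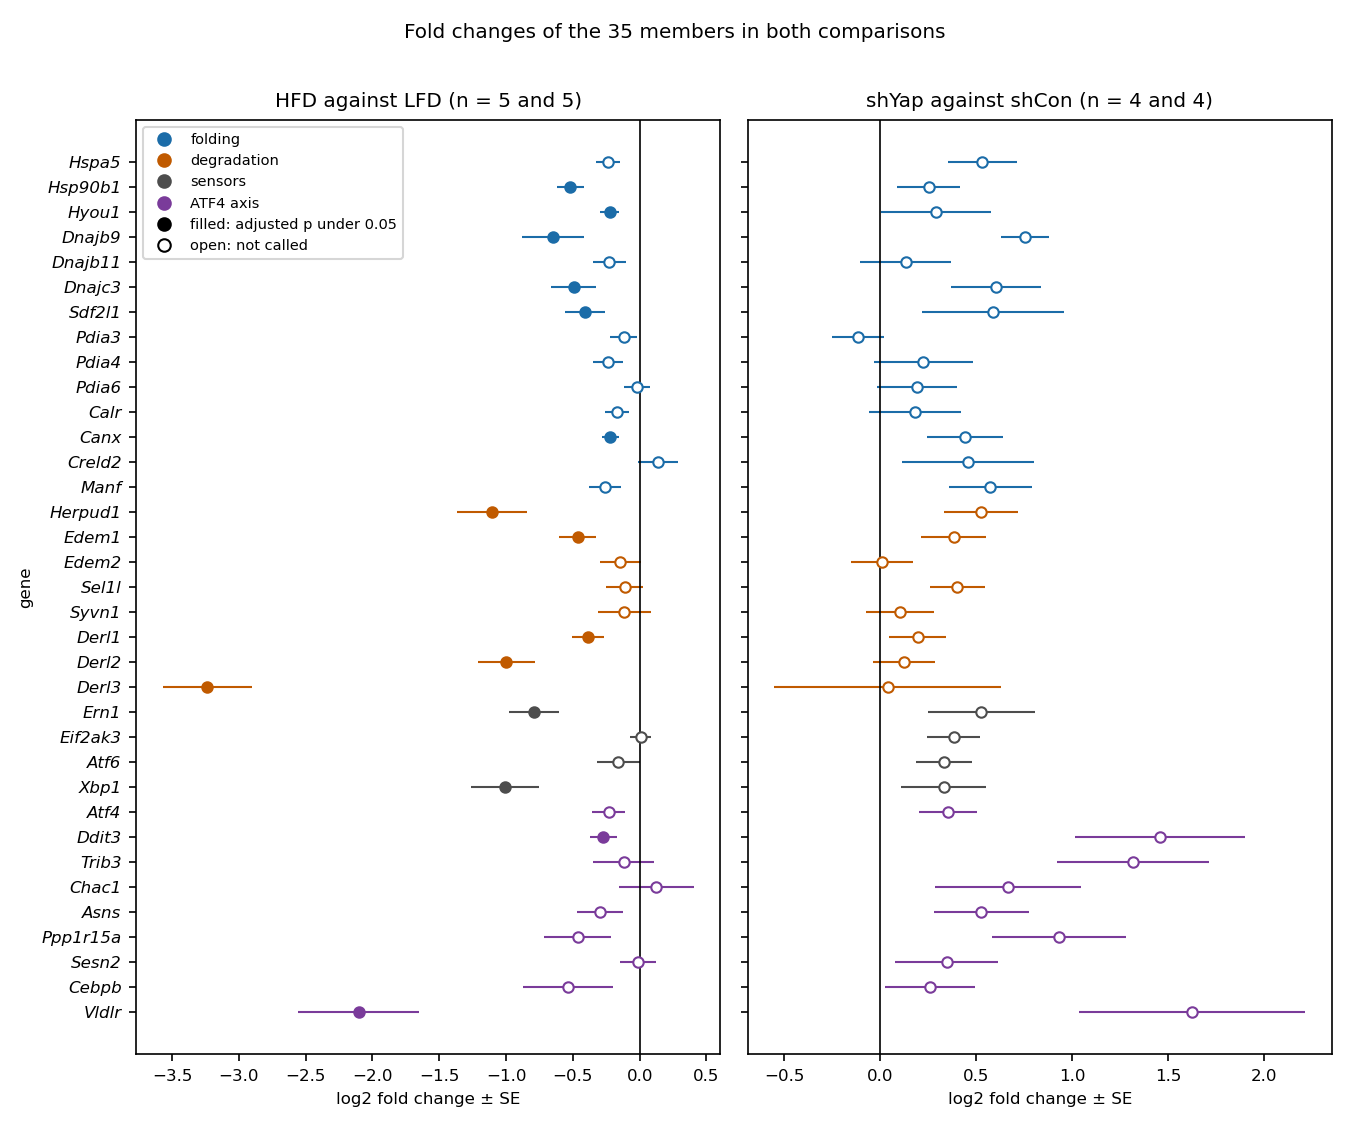
Points are log2 fold changes and bars their standard errors, for HFD against LFD at left (n = 5 and 5) and shYap against shCon at right (n = 4 and 4); filled points passed an adjusted p of 0.05 and the 2 horizontal axes differ in range. In HFD 32 of 35 members are left of 0 and 15 are filled, and in shYap 34 of 35 are right of 0 and none is filled.

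How many members were called lower in HFD depended on the choice and the scaling of the libraries. Without any 1 HFD library, or without LFD replicate 1 or 3, 7 or 8 of the 35 members were lower, beside 17.5% to 19% of all genes. With library totals in place of TMM-scaled sizes, a setting added after the data were seen, 6 members were lower (13.6% of all genes) and 0 higher (24.9%), and the median of all genes moved to 0.242. The 6 were Herpud1, Derl2, Derl3, Ern1, Xbp1 and Vldlr, with log2 fold changes of -0.76, -0.68, -2.94, -0.48, -0.67 and -1.79. All 6 lay below 0 and below the shifted median, and they were also among the 7 members, with Hsp90b1, that were called with each library left out in turn. For 9 of the 14 folding genes the direction turned, Hspa5, Hyou1 and Canx among them, with log2 fold changes of 0.02, 0.03 and 0.03 with library totals, whereas Hsp90b1, Dnajb9, Dnajc3 and Sdf2l1 had -0.25, -0.32, -0.19 and -0.15. Hspa5 was then at 827.6, 810.1, 877.1, 826.5 and 540.6 CPM in LFD and at 752.9, 804.9, 758.1, 781.7 and 830.2 CPM in HFD, with LFD replicate 5 lowest of all. The share of calls that were higher, over all genes, was 47.4% with TMM and 64.8% with library totals.

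**Figure D3:**
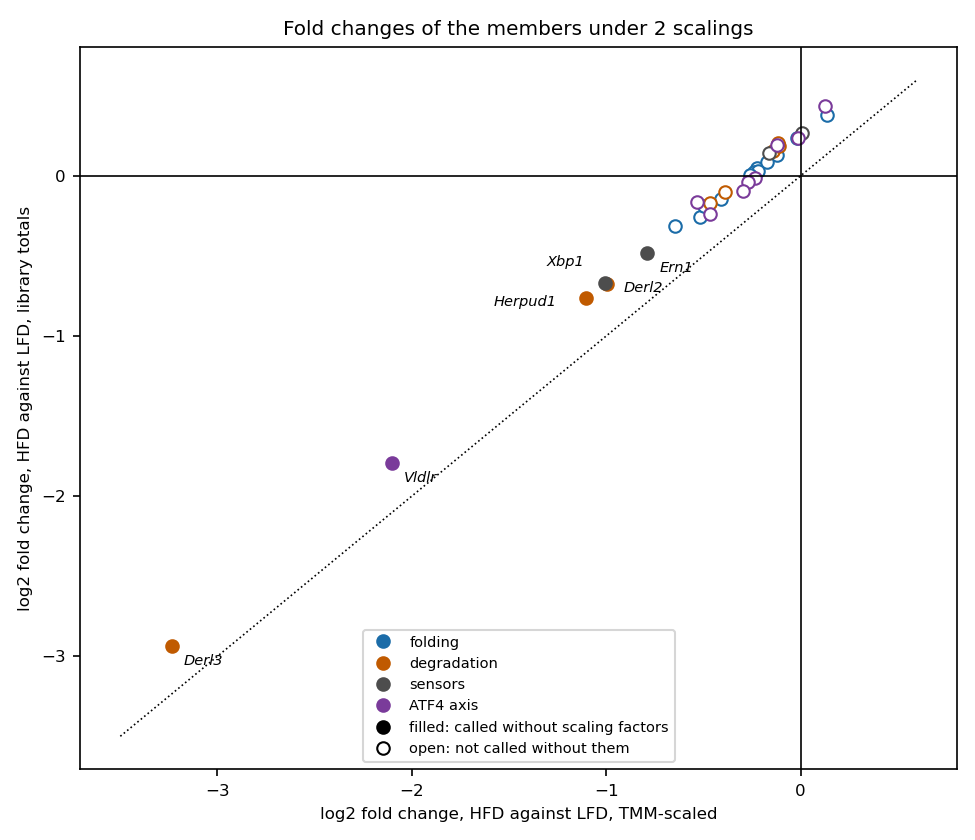
Each point is a member, with its log2 fold change of HFD against LFD under TMM scaling on the horizontal axis and under plain library totals on the vertical axis; the dotted line marks equal values and filled points were called with library totals. The members lie above the line by about the shift of all genes, and the 6 named ones stay called.

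With TMM scaling, Xbp1, Herpud1, Derl2, Derl3, Ern1 and Vldlr were each highest in LFD replicate 5, which had the most hepatocyte RNA (160080 CPM). With library totals Derl3 was highest in LFD replicate 1 (3.26 CPM) and Vldlr in LFD replicate 4 (2.57 CPM). Of the 25 hepatocyte genes 24 were lower in HFD, with 0 of the 25 at 0 in any library. Of the plasma cell list 6 of 9 genes tested were lower (these 9 summed to 266 to 1036 CPM in LFD and 123 to 174 CPM in HFD), as were 11 of 11 T cell genes (summed 39.954 to 145.58 and 14.754 to 51.874 CPM) and 4 of 6 Kupffer cell genes (147.5 to 361.87 and 26.113 to 101.43 CPM). Fibroblast genes went the other way, with 4 of 11 higher and 0 lower (summed 2974.8 to 5641.8 CPM in LFD and 6481.8 to 8590.6 CPM in HFD). Of 10 macrophage genes 1 was lower and 0 higher, and of 10 endothelial genes 2 were lower and 1 higher. The part of these other cell types in the members' levels was not tested. When the mean level of the hepatocyte genes entered the fit as a covariate, 2 members were lower (4.66% of all genes), Derl3 (log2 fold change -2.01, adjusted p = 0.0327) and Asns (-0.91, adjusted p = 0.0477), and 20 of 35 had a positive value. The covariate and the diet label correlate at -0.873 across the 10 libraries, so hepatocyte share and diet cannot be told apart. The same holds for diet and the difference in Xist, which followed the label in all 10 libraries. In bulk tissue, fewer cells of a type and less RNA per cell cannot be told apart either.

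**Figure D4:**
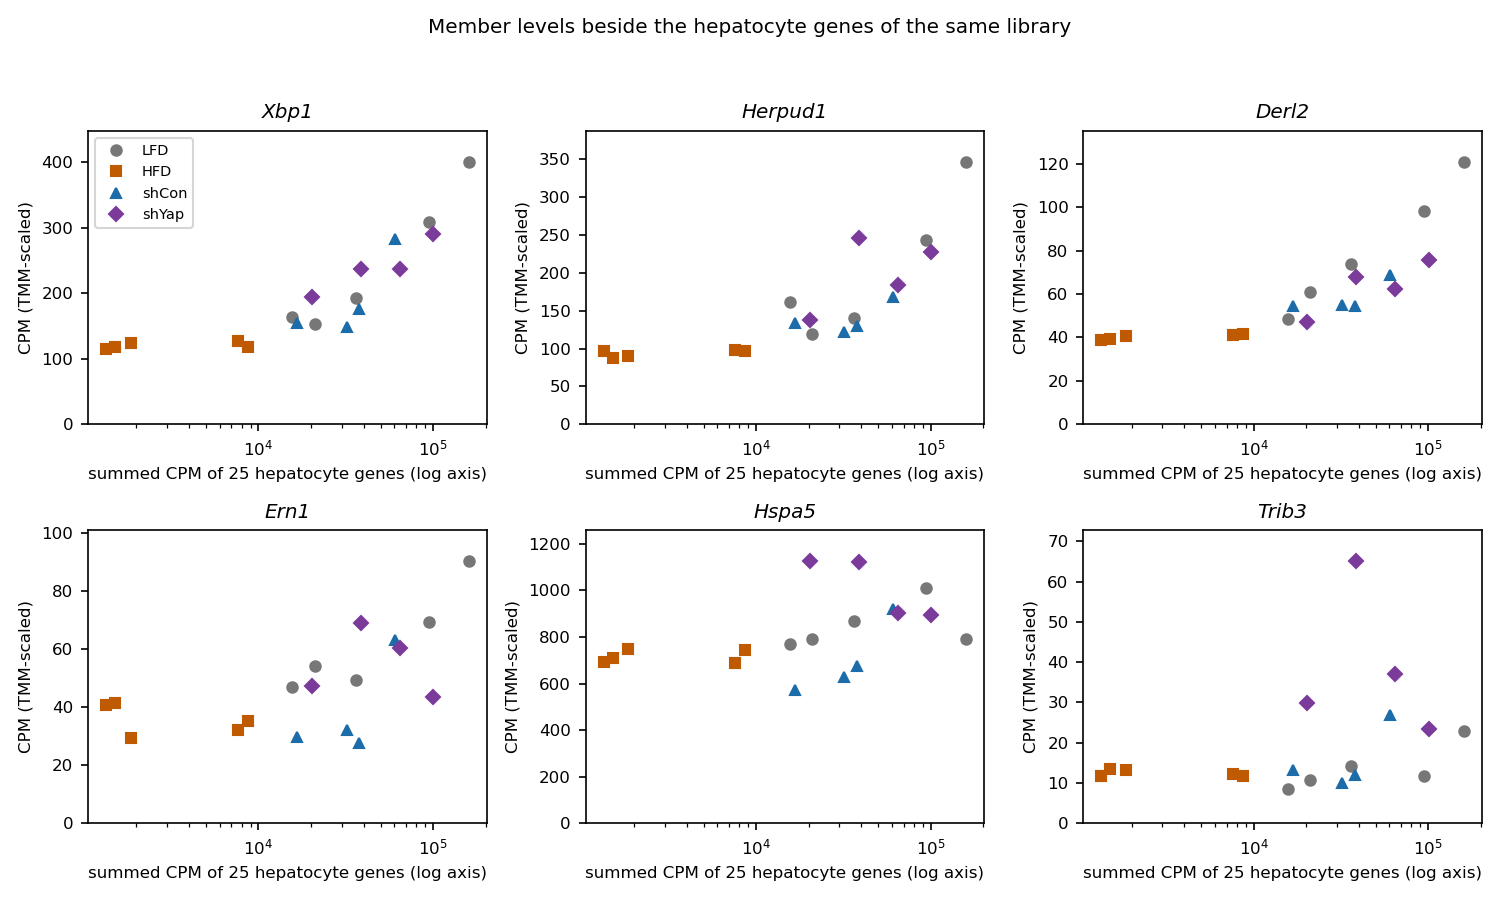
Points are the 18 libraries, with the summed CPM of 25 hepatocyte genes on a log axis and the CPM of a member on a linear axis from 0; the LFD and HFD table and the shCon and shYap table were scaled separately. HFD libraries lie at the left in every panel (1339.9 to 8675.6 CPM), and LFD replicates 1 and 5, at the right, are the highest LFD libraries in Xbp1, Herpud1, Derl2 and Ern1.

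HFD libraries were also alike among themselves. Over the members, the SD of log2(CPM + 0.5) had a median of 0.337 among LFD and of 0.0776 among HFD libraries, and over all genes of 0.292 and 0.131. HFD replicates 1 and 2 and replicates 3 and 4 were close pairs, and with each pair summed, a setting chosen after seeing the data, 5 members were lower (Hsp90b1, Derl2, Derl3, Ern1 and Vldlr) beside 12.9% of all genes. The cause of the close pairs was not tested.

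The second comparison asks how the libraries labelled shYap differ from shCon on the high-fat diet. No gene passed: 0 of the 35 members and 0 of the 16571 genes tested (0%) had an adjusted p under 0.05 in edgeR. At an unadjusted p under 0.05 there were 14 members with a higher level and 0 with a lower one, against 4.76% and 6.13% of all genes. DESeq2 called 3 members higher, Dnajb9, Ddit3 and Trib3 (adjusted p = 0.000126, 0.0304 and 0.0343), beside 0.748% of all genes higher, and limma voom called 0. The log2 fold change was above 0 in 34 members, with Pdia3 the exception, and in 53.9% of all genes. Its median was 0.38 over the members (0.33 in the ATF6/XBP1 axis, 0.67 in the ATF4 axis) and 0.03 over all genes. Groups did not overlap, with shYap higher, in Dnajb9, Eif2ak3 and Ddit3 (2.61% of all genes), and with shYap lower in 0 members (3.96%).

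In the folding class, Dnajb9, which encodes a BiP co-chaperone that represses IRE1 (chromosome 12 from 44205559 to 44210326), had the smallest p of the members. It was at 26.2, 29.0, 27.7 and 30.7 CPM in shCon and at 56.1, 43.4, 46.9 and 45.1 CPM in shYap. Every library labelled shYap was above every shCon library, and the log2 fold change was 0.75 ± 0.13 SE (95% interval 0.51 to 1.003, adjusted p = 0.149). Hspa5 was at 573.5, 675.5, 626.3 and 919.0 CPM in shCon and at 1122, 901.7, 1124 and 895.2 CPM in shYap. Only shCon replicate 4 reached the range of shYap (log2 fold change 0.53 ± 0.18 SE, adjusted p = 0.324). Manf was at 97.4, 104.6, 92.7 and 150.5 CPM in shCon and at 207.0, 143.7, 120.9 and 191.5 CPM in shYap, again overlapping through shCon replicate 4 (log2 fold change 0.57 ± 0.22 SE, adjusted p = 0.371). The other folding genes had log2 fold changes from -0.11 in Pdia3 to 0.60 in Dnajc3.

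Degradation genes were spread over a narrower range, with log2 fold changes from 0.01 in Edem2 to 0.52 in Herpud1. Sel1l was at 117.6, 112.2, 118.3 and 151.8 CPM in shCon and at 193.8, 162.0, 148.5 and 156.7 CPM in shYap (log2 fold change 0.40 ± 0.14 SE, adjusted p = 0.347). Herpud1 was at 133.4, 129.2, 121.2 and 168.5 CPM in shCon and at 245.9, 183.9, 137.9 and 226.8 CPM in shYap (log2 fold change 0.52 ± 0.19 SE, adjusted p = 0.366). In both genes 1 shYap library, replicate 3, lay below shCon replicate 4. Edem1 was at 86.1, 78.6, 86.1 and 121.9 CPM in shCon and at 143.0, 124.8, 114.6 and 103.7 CPM in shYap, where replicates 3 and 4 lay below shCon replicate 4 (log2 fold change 0.38, adjusted p = 0.454). Derl3 and Derl2, both lower in HFD than in LFD, had log2 fold changes of 0.04 (95% interval -1.12 to 1.198) and 0.12 (-0.20 to 0.44). Without shCon replicate 4, the highest of the 8 libraries at 9.54 CPM, Derl3 had 0.93.

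All 4 sensors and factors had positive values. Eif2ak3 (chromosome 6 from 70844515 to 70905245) was at 20.4, 21.1, 21.2 and 24.5 CPM in shCon and at 28.8, 27.2, 33.3 and 24.6 CPM in shYap, so that the groups only just did not overlap (log2 fold change 0.38 ± 0.14 SE, adjusted p = 0.355). Atf6 was at 62.9, 51.8, 57.7 and 78.6 CPM in shCon and at 77.2, 86.7, 76.0 and 76.4 CPM in shYap (log2 fold change 0.33 ± 0.14 SE, adjusted p = 0.447). Ern1 was at 29.9, 27.7, 32.0 and 63.2 CPM in shCon and at 69.1, 60.3, 47.4 and 43.4 CPM in shYap (log2 fold change 0.53 ± 0.28 SE, adjusted p = 0.560). In Atf6 and Ern1, shCon replicate 4 lay within the range of shYap and the other 3 shCon libraries below it. Xbp1 was at 154.1, 175.7, 148.7 and 282.0 CPM in shCon and at 236.3, 236.2, 193.7 and 290.1 CPM in shYap, with the same arrangement (log2 fold change 0.33 ± 0.22 SE, 95% interval -0.10 to 0.77).

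Among the members, the largest fold changes of this comparison were in the ATF4 axis. Trib3, a pseudokinase gene downstream of ATF4 and CHOP (chromosome 2 from 152337422 to 152344032), was at 13.3, 12.1, 9.99 and 26.8 CPM in shCon and at 65.0, 37.0, 30.0 and 23.4 CPM in shYap. The groups overlapped through shCon replicate 4 and shYap replicate 4 (log2 fold change 1.32 ± 0.40 SE, adjusted p = 0.287). Ddit3 was at 8.61, 9.40, 9.39 and 10.3 CPM in shCon and at 19.1, 18.1, 55.1 and 11.4 CPM in shYap. All 4 shYap libraries were above shCon, but by unequal amounts, with replicate 3 highest and replicate 4 close to shCon (log2 fold change 1.46 ± 0.44 SE, adjusted p = 0.293). Without shYap replicate 3 the log2 fold change was 0.81. Ppp1r15a, which encodes the GADD34 subunit that brings a phosphatase to eIF2, was likewise highest in shYap replicate 3, at 75.6 CPM, against 20.8 to 39.5 CPM in the other shYap libraries and 18.4 to 29.0 CPM in shCon.

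Atf4 was at 291.8, 336.0, 267.3 and 336.2 CPM in shCon and at 471.3, 367.2, 410.0 and 324.9 CPM in shYap (log2 fold change 0.35 ± 0.15 SE, adjusted p = 0.442). Asns was at 100.5, 94.05, 88.98 and 103.4 CPM in shCon and at 201.7, 147.1, 76.7 and 132.2 CPM in shYap (log2 fold change 0.53 ± 0.25 SE, adjusted p = 0.488). The groups of Asns overlapped through shYap replicate 3, which was the lowest of all 8 libraries in Asns and the highest in Ddit3. Vldlr, again with few counts, was at 0.701, 0.477, 0.139 and 0.630 CPM in shCon and at 1.17, 1.67, 2.72 and 0.490 CPM in shYap (log2 fold change 1.63 ± 0.59 SE, adjusted p = 0.358). Chac1, Sesn2 and Cebpb had log2 fold changes of 0.67, 0.35 and 0.26, none past the test.

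**Figure D5:**
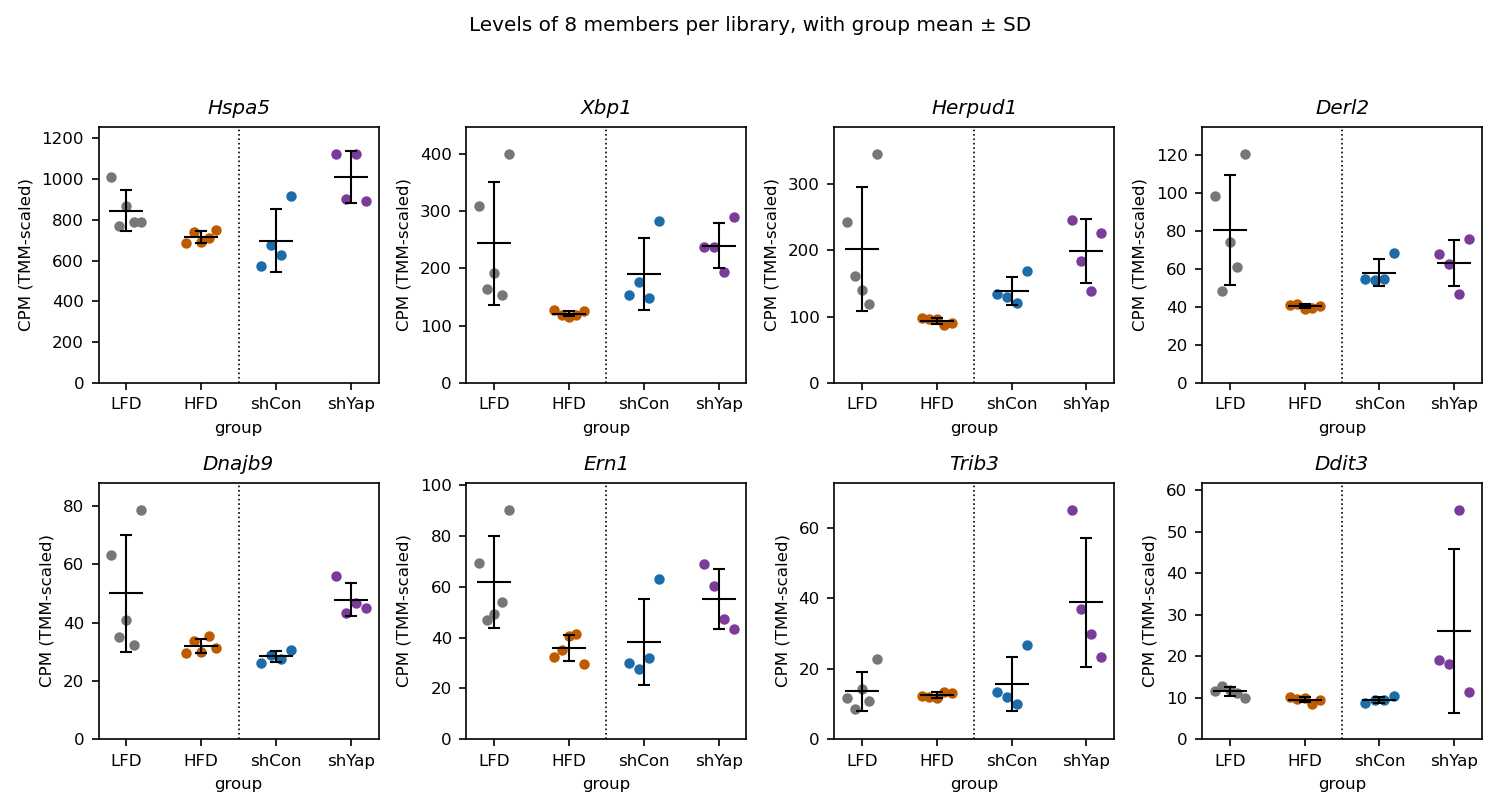
Points are the CPM of 8 members in each library, with the group mean ± SD in black (n = 5 for LFD and HFD, n = 4 for shCon and shYap); the dotted line divides the 2 tables, which were scaled separately. HFD points lie close together in every panel, shCon replicate 4 stands above the other shCon libraries in Hspa5, Xbp1, Ern1 and Trib3, and shYap replicate 3 does so among shYap libraries in Ddit3.

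Single libraries carried much of the spread in the second table. shCon replicate 4 was the highest shCon library in 32 of the 35 members, against 34.9% of all genes. shYap replicate 1 was the highest of its group in 24 members (23.7% of all genes), and in 13 of the 14 folding genes. shYap replicate 3 was the lowest in 21 members (34.4% of all genes) and in 11 folding genes. It was the highest in 4 of the 9 genes of the ATF4 axis (44.4%), not far from its 36.6% of all genes. shCon replicate 4 also had the most hepatocyte RNA of its group, with 60807 CPM against 16712, 37890 and 31950 in shCon replicates 1, 2 and 3. The shYap libraries held 38760, 64626, 20279 and 100450 CPM of it. T cell genes had negative log2 fold changes in 11 of 11, and all 11 had an unadjusted p under 0.05 (6.13% of all genes lower). Their summed levels were 48.231 to 119.8 CPM in shCon and 21.542 to 35.091 CPM in shYap. Macrophage genes were negative in 10 of 10 (summed 3451 to 3953 and 2608 to 3598 CPM) and fibroblast genes in 8 of 11 (5063.7 to 5781.1 and 2847.6 to 5426.2 CPM), each with 4 genes at an unadjusted p under 0.05. Hepatocyte genes were positive in 22 of 25 and Kupffer cell genes in 5 of 6, with 0 at that p. The part of these cell types in the result was not tested.

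Leaving out shCon replicate 4 and shYap replicate 3 together, the library of each group farthest from its others and a choice made after seeing the data, gave 18 members higher, 14 of the ATF6/XBP1 axis and 4 of the ATF4 axis, beside 3.92% of all genes. Among them were Dnajc3 (log2 fold change 0.99, adjusted p = 0.00979), Sdf2l1 (1.11, adjusted p = 0.0202), Dnajb9 (0.81, adjusted p = 0.01699) and Trib3 (1.83, adjusted p = 0.0217). Leaving out shCon replicate 4 and shYap replicate 1 instead gave 0, as did leaving out any 1 of the 8 libraries. The calls thus rest on which 3 libraries of each group are compared.

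Other genes of these pathways were read from lists that do not hold the members. Of 35 other genes of the ER and secretory pathway, 4 were higher and 6 lower in HFD (median log2 fold change 0.01), with Dnajc10, an ER disulfide reductase (0.63 ± 0.08 SE), and Mbtps2, a protease that cuts ATF6 (0.54 ± 0.09 SE), higher and the coat gene Sec24d lower (-0.30 ± 0.06 SE). Of 32 other genes of the integrated stress response, 3 were higher and 11 lower (median -0.27), among the lower ones Aars, the alanyl-tRNA synthetase (-0.57 ± 0.08 SE), the eIF2 kinase gene Eif2ak1 (-0.67 ± 0.10 SE) and Shmt2, of mitochondrial serine metabolism (-0.87 ± 0.14 SE). Of 14 heat shock genes of the cytosol and mitochondria, 3 were higher and 2 lower (median -0.0041), with the mitochondrial chaperonins Hspd1 (-0.40 ± 0.08 SE) and Hspe1 (-0.35 ± 0.08 SE) lower and the co-chaperone Bag3 (0.27 ± 0.06 SE) higher. These shares stand beside 19.4% of all genes higher and 21.6% lower.

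In shYap against shCon 0 genes of these 3 lists passed, with medians of 0.07, 0.28 and 0.02. At an unadjusted p under 0.05 there were 4 genes higher and 0 lower, 7 higher and 1 lower, and 0 in either direction, in the same order. The smallest p of the first list belonged to Ero1l, the oxidase that passes electrons from disulfide isomerases to oxygen, with levels of 46.9 ± 10.6 CPM for shCon and 231.2 ± 248.4 CPM for shYap (SD, n = 4 in each group; log2 fold change 2.30 ± 0.63 SE, adjusted p = 0.237), followed by P4hb (0.53 ± 0.16 SE), another disulfide isomerase, and Erp44 (0.28 ± 0.12 SE). Of the second list these were Sars (0.44 ± 0.12 SE), a seryl-tRNA synthetase, the double-stranded RNA sensor Eif2ak2 (-0.61 ± 0.16 SE) and Eif4ebp1 (0.63 ± 0.18 SE), a repressor of translation. Of the heat shock list they were Dnajb1, Hsf1 and Hspa8, with log2 fold changes of 0.30, -0.18 and 0.14.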

How the data were processed

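RNA of 18 liver metastases was sequenced, and the values deposited by the authors are estimated counts for each gene and include fractions. Per the submitters' processing notes, the tools were STAR 2.7.3a, Partek and DESeq2 (their roles are not stated) and the builds GRCm38 and mm10; strand, read length and annotation are not given in the sources used here. Only 10 of the 35 members had whole counts in every library, the origin of the fractions is not known here, and members that overlap other genes are less certain. The largest exon overlaps, summed over the overlapping genes, were 632 bases in Hsp90b1, 485 in Eif2ak3, 326 in Manf and 312 in Cebpb. Those of Derl2 and Ddit3 were 231 and 186 bases. Positions and exon lengths are from GENCODE M21, matched by symbol, start and strand.

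Estimated counts were rounded. Each table was fitted alone with edgeR 4.0.16 in R 4.3.3 by the robust quasi-likelihood F test with filterByExpr and TMM factors and without covariates, and p-values had Benjamini-Hochberg adjustment over all genes tested with a threshold of 0.05. Standard errors (SE) were obtained by dividing each log2 fold change by the root of its F statistic, and intervals are at 95%. Depth, 17207214 to 21309950 estimated counts per library, limits genes of few CPM such as Derl3 and Vldlr. The fit was tested on simulated counts in which 200 of 16186 genes (HFD against LFD) or 200 of 16333 (shYap against shCon) had known changes. The simulation held no shift in cell make-up, and in the real HFD against LFD data 41.1% of genes were called, so its rates may not carry over. Of the simulated calls 6.71% and 3.94%, in the same order, were unchanged genes. For HFD against LFD it called 66% of 2-fold and 87% of 4-fold changes. For shYap against shCon it called 34% and 88%, so most simulated 2-fold changes were missed there.

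Alternatives were DESeq2 1.42.0, limma 3.58.1 voom, RLE and upper-quartile factors, no filter or 1 CPM, a replicate block, a hepatocyte covariate, and each library left out; 4 more were added after seeing the data. The members and the other lists were chosen with earlier results of these data known. Values in every library are printed for Hspa5, Xbp1, Atf4, Ddit3 and Asns and, in each comparison, for the 3 members of each class with the smallest p; of the other lists, 3 genes by p are named. Xist and the libraries set apart in the text were chosen after seeing their values.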

Additional observations from a re-analysis of the deposited data

Results flagged for a closer look

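In 9 of 140 sets of values (35 members in 4 groups), 1 library lay far from the others of its group, and about 5% of such sets do so by chance. In 6 of the 9 it was shCon replicate 4, the highest shCon library: Hyou1 at 254.3 CPM against 147.3 to 159.4 in the other shCon libraries, Dnajc3 at 185.6 against 95.56 to 102.1, Creld2 at 54.82 against 28.75 to 30.12, Sel1l at 151.8 against 112.2 to 118.3, Derl2 at 68.62 against 54.42 to 54.78, and Ern1 at 63.24 against 27.71 to 32.02. That library also had the most hepatocyte RNA of the shCon group (60807 CPM summed over 25 genes), and its part in these levels was not tested.

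In shYap, Atf6 was at 86.69 CPM in replicate 2 against 76 to 77.15 CPM in the other 3, and Sesn2, a stress-induced regulator of growth signalling, at 66.6 CPM in replicate 1 against 33.62 to 36.96. In HFD, Chac1, which encodes a glutathione-degrading enzyme downstream of ATF4, was at 8.523 CPM in replicate 1 against 5.134 to 6.038 CPM in the other 4.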

How the results depend on the processing

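In HFD against LFD, the 15 lower members (13 of the ATF6/XBP1 axis and 2 of the ATF4 axis) became 9 (8 and 1) with upper-quartile factors and 6 (5 and 1) with library totals. They became 5 (4 and 1) with the closest HFD libraries summed and 2 (1 and 1) with the hepatocyte covariate. Beside these, in the same order, 18.4%, 13.6%, 12.9% and 4.66% of all genes were lower. Without a filter on low counts 10 members were lower, 1 of them of the ATF4 axis, beside 18% of all genes. Leaving out 1 library gave 7 to 19 (ATF6/XBP1 axis 6 to 18, ATF4 axis 1 to 3), beside 17.5% to 22.9% of all genes. There were 7 without HFD replicate 3 (17.6% of all genes). There were 8 without any other HFD library or without LFD replicate 1 or 3 (17.5% to 19%), and 19 without LFD replicate 2 (22.9%). DESeq2, RLE factors, limma voom and the 1 CPM filter gave 16, 16, 12 and 15, beside 24.7%, 22.4%, 19.1% and 21.9% of all genes. No alternative called a member higher, whereas 4.38% (covariate) to 24.9% (library totals) of all genes were higher. Over all genes, 3178 higher and 3532 lower became 716 and 761 with the covariate, 2056 and 2177 with the closest libraries summed, and 4076 and 2216 with library totals, and ranged from 2606 to 3593 and from 2903 to 3794 with 1 library left out. Upper-quartile factors gave 3700 higher and 2999 lower.

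In shYap against shCon, 0 members became 3 in DESeq2 (1 and 2 of the 2 axes; 124 genes higher and 286 lower in all) and 18 without shCon replicate 4 and shYap replicate 3 (14 and 4; 653 and 602 genes). The covariate gave 1 lower gene. With 1 library left out 0 members were called, and 0 to 17 genes were higher and 0 to 77 lower; the highest numbers came without shCon replicate 4. Precision is limited by 4 or 5 libraries a group, and for Derl3 and Vldlr by counts of few CPM.

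With the replicate block, 8 members were lower in HFD (7 and 1 of the 2 axes), beside 2376 genes higher and 2553 lower, and 0 members and genes were called in shYap; the libraries share only a number, since the deviations of same-numbered ones correlated at 0.315, -0.5, 0.104, 0.304 and -0.272 in the diets and at 0.00572, -0.052, 0.182 and 0.178 in the hairpin groups, and only shCon replicate 3 correlated best with its own number.

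Signs of log2 fold changes turned as follows, with the covariate also those of called members such as Herpud1, Xbp1, Derl2 and Dnajb9, and the cause was not tested beyond the shift of all genes with library totals. In HFD against LFD, library totals gave 0.016 for Hspa5, 0.032 for Hyou1, 0.048 for Dnajb11, 0.13 for Pdia3, 0.027 for Pdia4, 0.24 for Pdia6, 0.088 for Calr, 0.033 for Canx, 0.0076 for Manf, 0.16 for Edem2, 0.19 for Sel1l, 0.20 for Syvn1, 0.14 for Atf6, 0.19 for Trib3 and 0.24 for Sesn2. The covariate gave 0.40 for Dnajb9, 0.26 for Dnajb11, 0.22 for Dnajc3, 0.18 for Pdia6, 0.039 for Manf, 0.040 for Herpud1, 0.20 for Edem1, 0.58 for Edem2, 0.46 for Sel1l, 0.77 for Syvn1, 0.080 for Derl1, 0.045 for Derl2, 0.53 for Atf6, 0.20 for Xbp1, 0.69 for Trib3, 0.042 for Sesn2 and 1.22 for Cebpb. Upper-quartile factors gave 0.059 for Pdia6 and 0.066 for Sesn2. Dropping the filter gave 0.0013 for Pdia6 and 0.0090 for Sesn2. DESeq2 gave -0.015 for Eif2ak3. RLE factors gave -0.018 for Eif2ak3. Summing the closest HFD libraries gave -0.0025 for Eif2ak3. Limma voom gave 0.00037 for Trib3. In shYap against shCon, the covariate gave -0.042 for Dnajb11, -0.034 for Edem2 and -0.13 for Derl3. Upper-quartile factors gave -0.016 for Edem2. Library totals gave -0.060 for Edem2 and -0.012 for Derl3. With 1 library left out, HFD against LFD ranged from -0.080 to 0.042 for Pdia6, from -0.22 to 0.0075 for Edem2, from -0.18 to 0.049 for Sel1l, from -0.23 to 0.070 for Syvn1, from -0.029 to 0.061 for Eif2ak3, from -0.25 to 0.032 for Atf6, from -0.25 to 0.16 for Trib3, from -0.021 to 0.43 for Chac1 and from -0.094 to 0.080 for Sesn2. With 1 library left out, shYap against shCon ranged from -0.0084 to 0.36 for Dnajb11, from -0.034 to 0.42 for Pdia4, from -0.032 to 0.35 for Pdia6, from -0.10 to 0.094 for Edem2 and from -0.23 to 0.93 for Derl3.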
